A study of Mus musculus with 10 samples.

Results

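The genes described here are 55 ligands, receptors, antagonists, regulators and targets of Wnt signalling, chosen by gene symbol and measured in mouse lung at the embryonic stage E18.5, late in gestation. Of these, 50 had a probe set of their own among 17919 genes on the array, and a gene with several probe sets was read from the one with the highest mean in the 10 lungs. Wnt8b, Wnt16, Fzd10, Sfrp4 and Tcf7 were not matched to a probe set and have no value here.

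The samples were 5 lungs labelled as Shh-Cre controls and 5 lungs labelled Shh-Cre with both Hdac3 alleles floxed, called knockout below, with 1 array per lung. Both groups carry Shh-Cre, which deletes floxed DNA in cells that express Shh, in the lung the epithelium, and both have a mixed C57BL/6, 129X1 and 129S6 background. Dams were Hdac3 fl/fl and sires Hdac3 fl/+ with Shh-Cre; the Hdac3 alleles of the controls are not labelled, and a Cre-carrying control of this cross would have 1 deleted allele in its epithelium. Whole lungs were profiled, so the mesenchyme, vessels and blood, which keep Hdac3, contribute to each value, and fewer cells of a type cannot be told apart from less RNA per cell.

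Wnt proteins are lipid-modified by Porcn, carried out of the cell by Wls, and bind Frizzled receptors with the co-receptors Lrp5 and Lrp6. In the canonical branch this stops the Axin and Apc complex from destroying beta-catenin (Ctnnb1), which then acts with TCF/LEF factors on target genes such as Axin2 and Lef1; other branches guide cell polarity. R-spondins acting through Lgr receptors keep Frizzled at the surface by removing the ligases Znrf3 and Rnf43. In the developing lung, Wnt2 and Wnt2b from mesenchyme help specify the lung field, Wnt7b comes from the epithelium, and Wnt5a acts mainly through non-canonical receptors.

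Hdac3, a histone deacetylase of the NCoR/SMRT corepressor complexes, had a mean of 10.81 ± 0.10 on the log2 scale in controls and 10.50 ± 0.11 in knockouts (SD, n = 5 each), and thus fell by 0.31 (limma adjusted p = 0.0203). Lung identity was visible in both groups: the surfactant gene Sftpc averaged 13.46 in controls and 13.44 in knockouts, close to the highest value of the table (13.611). Limma called 559 of 17919 genes at an adjusted p under 0.05, which is 3.12% of them, with 276 higher (1.54%) and 283 lower (1.58%). The labels number the lungs 1 to 5 in each group. Deviations of same-numbered lungs correlated at 0.154 to 0.485, and those of different numbers at up to 0.33, so pairing by number is not certain. A fit with the number as a block was also run and called 846 genes (4.72%).

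Of the 50 Wnt genes, 3 were called, or 6% against the 3.12% of all genes. Fzd2, a Frizzled receptor, and Znrf3, a ligase that removes Frizzled receptors, rose; Lgr5, an R-spondin receptor, fell. The same 3 genes were called with the replicate block, where 4.72% of all genes were. The other 47 were not called. A log2 change smaller than 0.1 in either direction was seen for 33 of the 50 (66%, against 71.3% of all genes). The median log2 change was 0.00 over the Wnt genes and 0.00 over all genes, and the median size of the change was 0.07 and 0.06. The 95% interval of the change lay between -0.5 and 0.5 for 49 of the 50 genes (98%, against 94.8% of all genes), all but Fzd2. It lay between -0.25 and 0.25 for 29 of them (58%, against 65.8%). No ligand, secreted antagonist or TCF/LEF factor passed the test; 8 of the 50 genes (16%) had an unadjusted p under 0.05, against 13.5% of all genes.

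**Figure D1:**
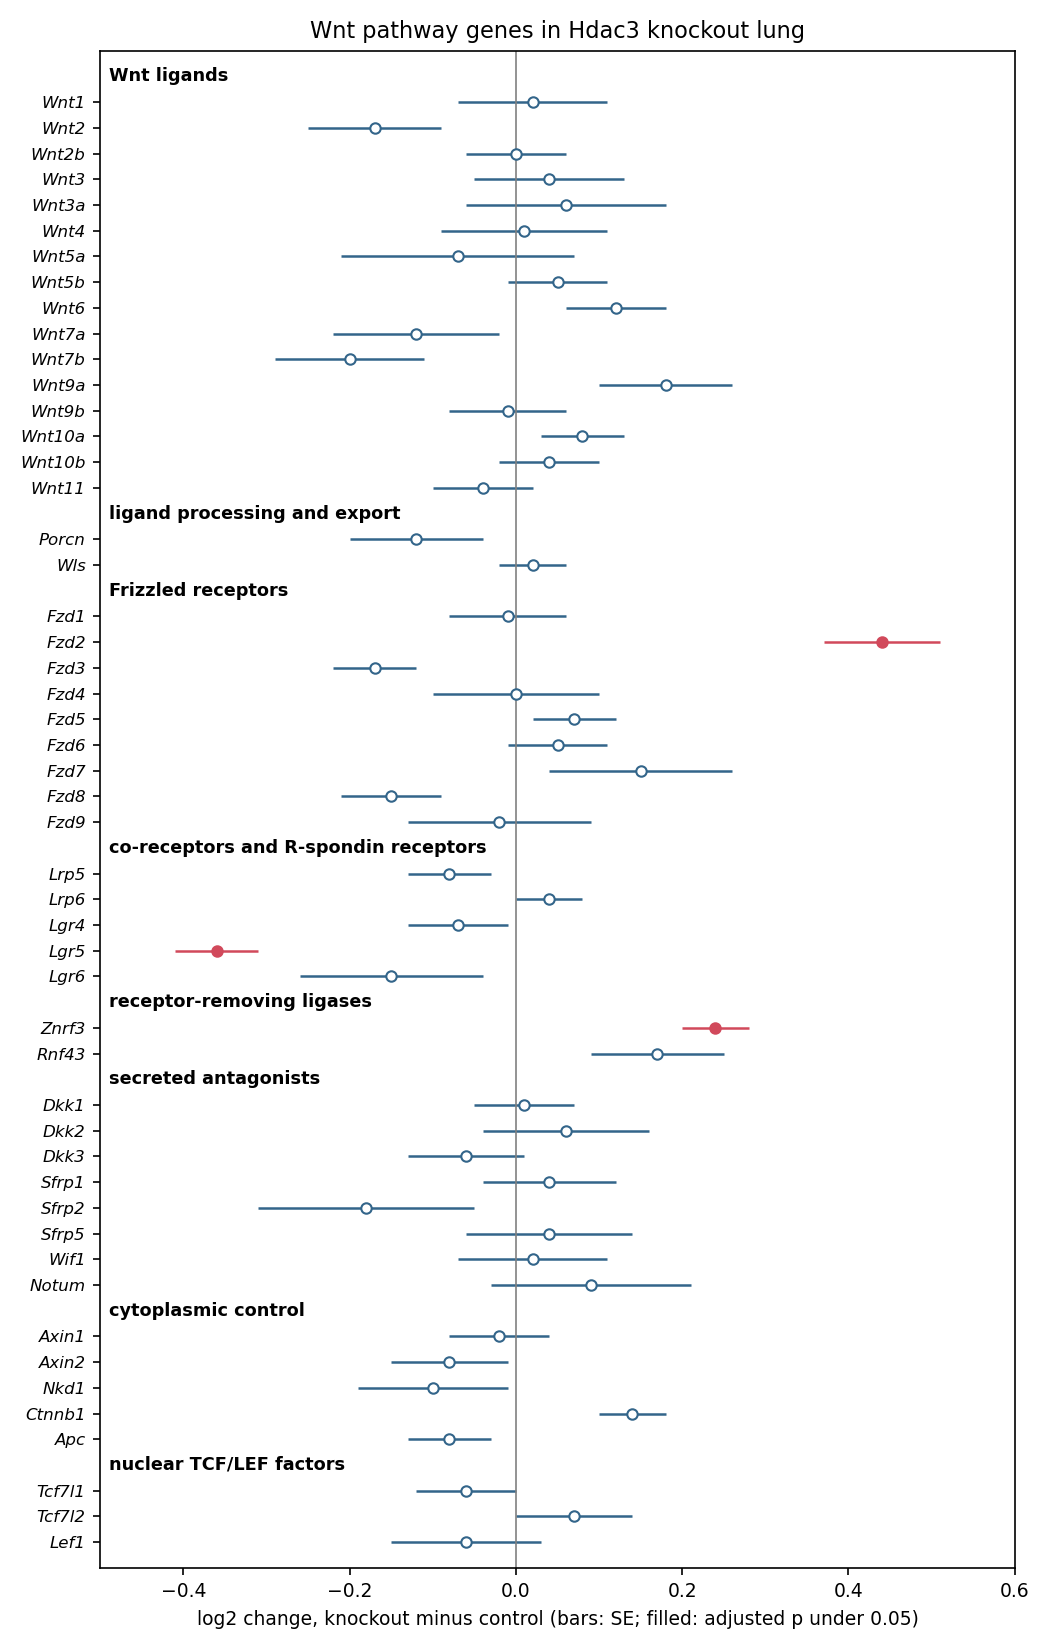
Log2 change (knockout minus control, x axis) of the 50 measured Wnt genes, ordered by role; points are limma estimates from 5 lungs per group and bars are the SE. Filled points mark Fzd2 (0.44), Znrf3 (0.24) and Lgr5 (-0.36), the 3 genes with an adjusted p under 0.05; the other points lie between -0.20 and 0.18.

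**Figure D2:**
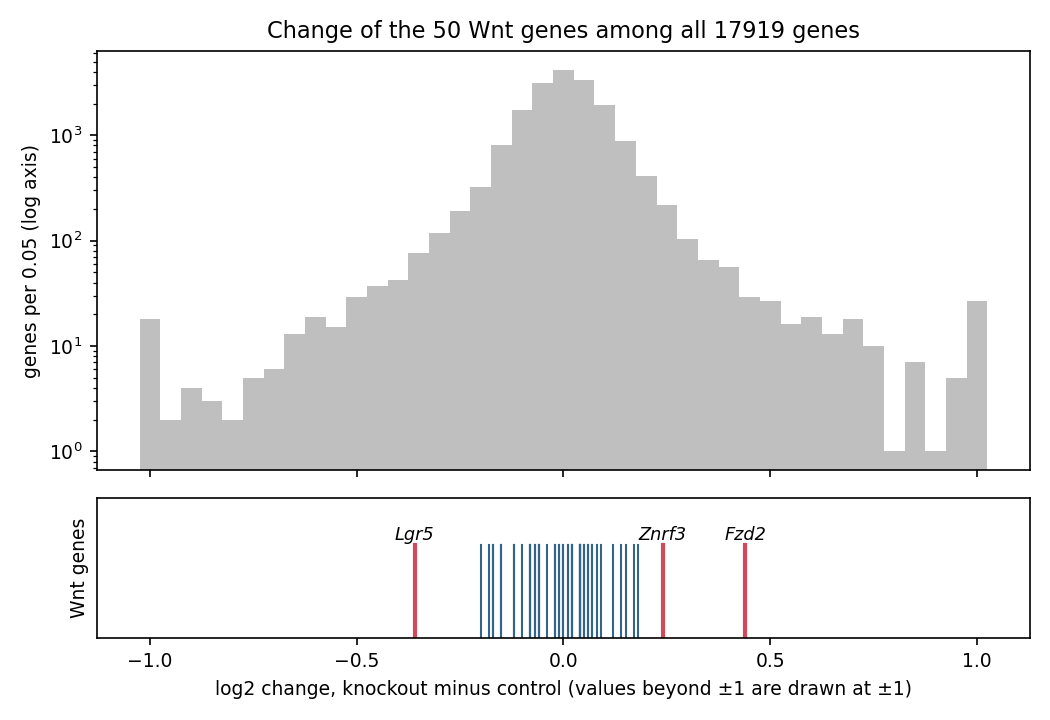
Upper panel, number of genes (log axis) by log2 change for all 17919 genes; lower panel, the 50 Wnt genes as vertical lines on the same x axis. The Wnt genes run from -0.36 to 0.44 and all genes from -2.27 to 2.57.

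The 3 called genes all act at the cell surface. Fzd2 takes part in airway branching in the lung epithelium. Its control values were 8.75, 8.75, 8.75, 8.78 and 8.72, and its knockout values 9.13, 9.11, 9.02, 9.46 and 9.25 for lungs 1 to 5. All knockout lungs lay above all control lungs, and the knockout values were spread more widely (SD 0.17 against 0.02). The rise was 0.44 ± 0.07 in log2 units (SE), or 136% of the control level (adjusted p = 0.00461, and 0.00705 with the block). It was higher in 5 of 5 same-numbered pairs, by 0.27 to 0.68.

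Znrf3 is a membrane ubiquitin ligase. Its control values were 9.39, 9.47, 9.44, 9.37 and 9.48, and its knockout values 9.68, 9.70, 9.67, 9.61 and 9.69. The groups did not overlap, and the spread within each was small (SD 0.05 and 0.04). Znrf3 rose by 0.24 ± 0.04 (SE), to 118% of the control level (adjusted p = 0.00864, and 0.0156 with the block), and the difference was 0.22 to 0.29 in the 5 pairs. Its relative Rnf43 had means of 8.32 and 8.49 and a log2 change of 0.17 ± 0.08 (SE), which was not called (adjusted p = 0.414); it was higher in 4 of 5 pairs and the groups overlapped.

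Lgr5 marks stem cells in several epithelia and a set of mesenchymal cells in the lung. Its control values were 6.60, 6.59, 6.62, 6.70 and 6.50, and its knockout values 6.31, 6.17, 6.31, 6.22 and 6.19. Every knockout lung lay below every control lung. The log2 change was -0.36 ± 0.05 (SE), which is 77.9% of the control level (adjusted p = 0.00205, and 0.00484 with the block), and was lower in 5 of 5 pairs. These values sit close to 6.30, the 20th percentile of all values, where arrays compress differences, so the size is uncertain. With values floored there the log2 change was -0.29 (adjusted p = 0.00251). The floor lifts most knockout values to 6.30 and so removes most of their spread. That p is thus no separate support for the call. The other R-spondin receptors were not called: Lgr4 had a log2 change of -0.07 and Lgr6 of -0.15, with SEs of 0.06 and 0.11. The co-receptors Lrp5 (-0.08) and Lrp6 (0.04) were also not called, although Lrp5 was lower in 5 of 5 pairs.

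Of the 9 Frizzled receptors measured, 4 had a log2 change above 0 and 5 below, and Fzd2 alone was called. Fzd3, which acts in planar cell polarity, was named here after its values were seen. Its control values were 7.18, 7.29, 7.19, 7.26 and 7.28, and its knockout values 7.09, 7.10, 7.04, 7.14 and 6.95. The groups did not overlap, but the log2 change of -0.17 ± 0.05 (SE) missed the threshold (adjusted p = 0.089, and 0.0986 with the block). Fzd8 was lower in 5 of 5 pairs, with differences from -0.18 to -0.11 and -0.15 on average; its adjusted p was 0.323 without and 0.0977 with the block. Fzd7 stood at 0.15 ± 0.11 (SE) and Fzd1, Fzd4, Fzd5, Fzd6 and Fzd9 between -0.02 and 0.07; none of these was called.

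Of the 50 genes, 5 had groups that did not overlap (10%, against 5.11% of all genes): Fzd2, Znrf3 and Ctnnb1 with the knockout above, and Lgr5 and Fzd3 with the knockout below. Same-numbered pairs all went one way for 10 of the 50 (20%, against 17.8% of all genes). No test was made of either share.

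**Figure D3:**
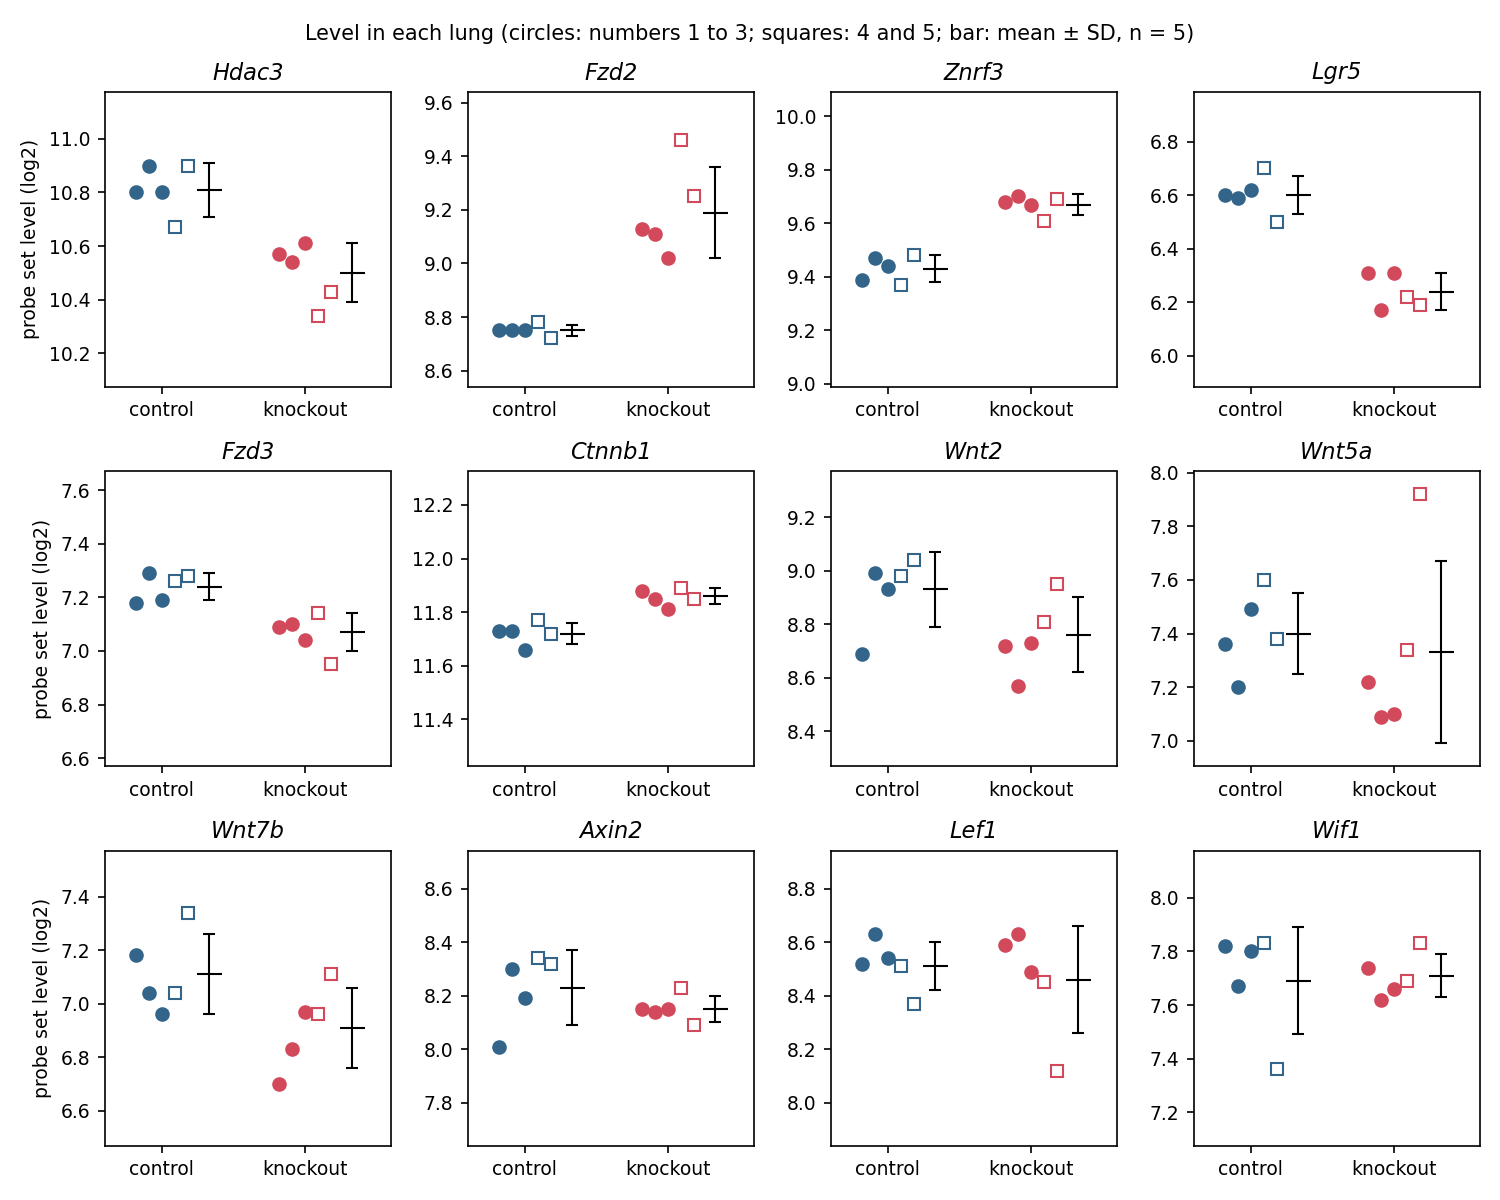
Probe set level (log2, y axis; each panel spans 1.1 units and levels are not compared between genes) in each control and knockout lung, with circles for lungs 1 to 3, squares for lungs 4 and 5 and bars for mean ± SD (n = 5). Hdac3, Fzd2, Znrf3, Lgr5, Fzd3 and Ctnnb1 show groups that do not overlap; Wnt2, Wnt5a, Wnt7b, Axin2, Lef1 and Wif1 overlap.

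Among the ligands, limma called 0 of 16 measured, with 2 at an unadjusted p under 0.05. Of all genes, 3.12% were called and 13.5% had such an unadjusted p. Wnt7b, made by the lung epithelium and needed for growth of the mesenchyme, had control values of 7.18, 7.04, 6.96, 7.04 and 7.34 and knockout values of 6.70, 6.83, 6.97, 6.96 and 7.11. The lowest 2 values were knockouts 1 and 2 and the highest was control 5, with the other lungs mixed. Its log2 change was -0.20 ± 0.09 (SE, adjusted p = 0.335), with a 95% interval from -0.39 to -0.01. Wnt2, a mesenchymal ligand, had control values of 8.69, 8.99, 8.93, 8.98 and 9.04 and knockout values of 8.72, 8.57, 8.73, 8.81 and 8.95. Control 1 lay among the knockouts, and the log2 change was -0.17 ± 0.08 (SE, adjusted p = 0.389), with an interval from -0.34 to 0.01. Both ligands were lower in 4 of 5 pairs.

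Wnt5a had control values of 7.36, 7.20, 7.49, 7.60 and 7.38 and knockout values of 7.22, 7.09, 7.10, 7.34 and 7.92. Knockout 5 was the highest of all 10 lungs while knockouts 2 and 3 were the lowest. The log2 change was -0.07 ± 0.14 (SE, adjusted p = 0.903), the largest SE among the Wnt genes. Without knockout 5 it was -0.22 (adjusted p = 0.234) and without knockout 2 or knockout 3 it was -0.01, and over all omissions of 1 lung the adjusted p ran from 0.234 to 0.991. Wnt9a stood at 0.18 (adjusted p = 0.333) and Wnt7a at -0.12 (adjusted p = 0.696). The remaining 11 ligands had changes from -0.04 to 0.12, and Wnt1, Wnt3, Wnt6 and Wnt10b had means over all lungs under 6.30.

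Of the ligand genes, 8 lie next to each other as 4 pairs in the order of protein-coding genes of RefSeq (GRCm38.p6). Wnt6 and Wnt10a had log2 changes of 0.12 and 0.08, each higher in 5 of 5 pairs of lungs. Wnt3a and Wnt9a stood at 0.06 and 0.18, Wnt9b and Wnt3 at -0.01 and 0.04, and Wnt10b and Wnt1 at 0.04 and 0.02. None of these 8 genes was called. The acylating enzyme gene Porcn stood at -0.12 (adjusted p = 0.567) and the export gene Wls at 0.02 (adjusted p = 0.917).

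Limma called 0 of 8 measured secreted antagonists, and 0 had an unadjusted p under 0.05. Over all genes these shares were 3.12% and 13.5%. Wif1, which binds Wnt proteins outside the cell, had control values of 7.82, 7.67, 7.80, 7.83 and 7.36 and knockout values of 7.74, 7.62, 7.66, 7.69 and 7.83. Control 5 was the lowest lung, and the log2 change was 0.02 ± 0.09 (SE, adjusted p = 0.971). The largest difference in this group was that of Sfrp2, a decoy related to Frizzled, at -0.18 ± 0.13 (SE, adjusted p = 0.61). Notum, an enzyme that removes the lipid of Wnt proteins and is induced by Wnt signalling, stood at 0.09 ± 0.12 (SE). The Lrp-binding antagonists Dkk1 and Dkk2 stood at 0.01 and 0.06, Dkk3 of the same family at -0.06, and Sfrp1 and Sfrp5 both at 0.04. Sfrp5 had means of 6.17 and 6.22, under 6.30, and Dkk1 of 6.41 and 6.42, near it. At such levels arrays compress differences, so small changes there say little.

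Axin2, Lef1, Nkd1, Notum and Dkk1 are induced by beta-catenin in many tissues. Promoters of Axin2, Lef1 and Dkk1, a part of these targets, are printed here. They were chosen after their values were seen. The letters searched were CTTTGA, a form of the core bound by TCF/LEF factors, on either strand (TCAAAG on the other). Other forms of the core were not counted. Windows were of 300 bases, from 250 before to 50 after a start. The sequences are RefSeq's, build GRCm38.p6, 5′ to 3′ along the gene, with matches in capitals. Of the 4 Lef1 starts, the only 1 whose window holds the letters is shown.
Axin2, chr11:108920099-108920398, + strand: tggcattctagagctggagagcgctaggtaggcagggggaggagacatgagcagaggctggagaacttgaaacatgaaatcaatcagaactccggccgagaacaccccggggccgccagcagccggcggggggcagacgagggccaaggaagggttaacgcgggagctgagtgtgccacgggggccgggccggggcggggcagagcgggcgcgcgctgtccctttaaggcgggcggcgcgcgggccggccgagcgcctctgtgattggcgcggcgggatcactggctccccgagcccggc
Lef1, chr3:131156044-131156343, + strand: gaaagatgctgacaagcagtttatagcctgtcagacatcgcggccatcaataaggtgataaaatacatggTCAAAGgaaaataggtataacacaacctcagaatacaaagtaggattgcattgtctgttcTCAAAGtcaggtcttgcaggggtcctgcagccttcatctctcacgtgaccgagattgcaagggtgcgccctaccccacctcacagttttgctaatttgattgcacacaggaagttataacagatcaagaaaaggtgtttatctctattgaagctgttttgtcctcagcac
Dkk1, chr19:30549447-30549746, - strand: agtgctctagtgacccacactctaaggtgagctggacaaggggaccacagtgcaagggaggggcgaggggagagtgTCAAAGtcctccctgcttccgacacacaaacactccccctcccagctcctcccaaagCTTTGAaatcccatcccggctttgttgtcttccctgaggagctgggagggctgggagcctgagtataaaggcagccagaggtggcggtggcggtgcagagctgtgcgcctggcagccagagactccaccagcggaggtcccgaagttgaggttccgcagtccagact
The Axin2 window holds 0 matches. The Lef1 window holds 2, at 180 and 120 bases before the start, and the Dkk1 window 2, at 174 and 117 bases before. Of 33 Wnt genes with a window, 5 hold the letters in at least 1 window (15.15%, against 18.17% of 27025 genes), namely Lef1, Dkk1, Fzd1, Wnt5b and Wnt11. The targets Nkd1 and Notum are not among these 5 and are not printed. The windows of the Wnt genes had a median GC of 67.0%, against 52.7% in all windows, and the shares are not corrected for this. The match is a description and not a site. No window was matched for Fzd2, Znrf3 or Lgr5.

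Axin2, a scaffold of the destruction complex and a feedback target, had control values of 8.01, 8.30, 8.19, 8.34 and 8.32 and knockout values of 8.15, 8.14, 8.15, 8.23 and 8.09. Control 1 was the lowest lung and the knockouts lay within the control range. The log2 change was -0.08 ± 0.07 (SE, adjusted p = 0.702), with a 95% interval from -0.22 to 0.07. A second Axin2 probe set, with a mean of 6.30, stood at 0.10 ± 0.07 (SE), so the probe sets differ in sign and neither was called. Lef1, a TCF/LEF factor, had control values of 8.52, 8.63, 8.54, 8.51 and 8.37 and knockout values of 8.59, 8.63, 8.49, 8.45 and 8.12. Knockout 5 was the lowest lung and the other 9 were mixed. The log2 change was -0.06 ± 0.09 (SE, adjusted p = 0.87), with an interval from -0.25 to 0.14, and it was 0.03 without knockout 5. Nkd1, a feedback inhibitor that binds Dishevelled, stood at -0.10 ± 0.09 (SE), and the TCF factors Tcf7l1 and Tcf7l2 at -0.06 and 0.07.

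Ctnnb1, which encodes beta-catenin, had control values of 11.73, 11.73, 11.66, 11.77 and 11.72 and knockout values of 11.88, 11.85, 11.81, 11.89 and 11.85. Every knockout lung lay above every control lung, by 0.12 to 0.16 within the pairs. The log2 change of 0.14 ± 0.04 (SE), a level of 110% of the control, was not called (adjusted p = 0.115, with and without the block). It was called with trend and robust both set in eBayes (adjusted p = 0.023) and with low values floored (adjusted p = 0.0173). The Ctnnb1 values lie above the floor, so the floor acts on this gene only through the other genes in the fit. This is a transcript level; the signalling pool of beta-catenin is set by protein stability and was not measured. The destruction complex genes Axin1 and Apc stood at -0.02 and -0.08 and were not called.

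The rest of the pathway was read from 100 measured genes of 108 listed, outside the 55. Limma called 0 of these, against 3.12% of all genes, and 7 (7%, against 13.5% of all genes) had an unadjusted p under 0.05. Their median log2 change was 0.01. Celsr1, a cadherin of planar cell polarity, came closest. Its control values were 9.38, 9.39, 9.35, 9.17 and 9.36 and its knockout values 9.63, 9.61, 9.63, 9.43 and 9.55, with no overlap. The log2 change was 0.24 ± 0.06 (SE, adjusted p = 0.0501), and Celsr1 was called with the block (adjusted p = 0.0166), the only one of the 100. Pygo2, a beta-catenin cofactor, also had groups that did not overlap, with means of 7.60 and 7.81 (adjusted p = 0.0786).

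The 4 R-spondins, which signal through Lgr5 and its relatives, had log2 changes from -0.04 to 0.02. The 20 genes of the destruction complex and Dishevelled lay between -0.11 and 0.09, and the 16 other secreted modulators between -0.10 and 0.09. Limma called 0 of 25 common target genes, with 2 at an unadjusted p under 0.05. Of all genes, 3.12% were called and 13.5% had such an unadjusted p. The targets Myc and Ccnd1 stood at 0.07 ± 0.09 and 0.06 ± 0.06 (SE). Of 18 genes of planar cell polarity and non-canonical signalling, 0 were called without the block and 1 with it. Over all genes these shares were 3.12% and 4.72%.

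Lungs 4 and 5 stood apart from lungs 1 to 3 in both groups for some Wnt genes, and these contrasts were named after their values were seen. Wnt3a was higher in lungs 4 and 5 by 0.36 among controls and 0.27 among knockouts, and Wnt7a by 0.27 and 0.35. For Fzd4, which is prominent in endothelium, the same contrast was -0.20 among controls and -0.41 among knockouts. The labels do not say what the numbers share. For the target gene Sox9, which marks distal progenitors, control values were 8.21, 8.49 and 8.33 in lungs 1 to 3 and 9.07 and 8.86 in lungs 4 and 5, and knockout values 7.88, 8.28, 8.31, 8.98 and 9.01.

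Within lungs 1 to 3, Fzd2 had a log2 change of 0.34 (adjusted p = 0.0188), Lgr5 of -0.34 (adjusted p = 0.027) and Znrf3 of 0.25 (adjusted p = 0.0553). Within lungs 4 and 5, with 2 per group, the changes were 0.60, -0.39 and 0.23, and limma called 0 of the 50 Wnt genes and 2 of all genes. Fzd2, Znrf3 and Lgr5 were picked by a fit over these same lungs, so the sets are no separate test of them. The difference in Fzd2 between the sets was not tested. Several genes differed in sign between the sets. Wnt5a stood at -0.22 in lungs 1 to 3 and 0.14 in lungs 4 and 5, and Notum at 0.23 and -0.12. For both, knockout 5 lay apart from knockout 4, with Wnt5a at 7.92 against 7.34 and Notum at 6.81 against 7.52. Others that differed in sign included Wnt11 (-0.15 and 0.13) and Wif1 (-0.08 and 0.17).

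**Figure D4:**
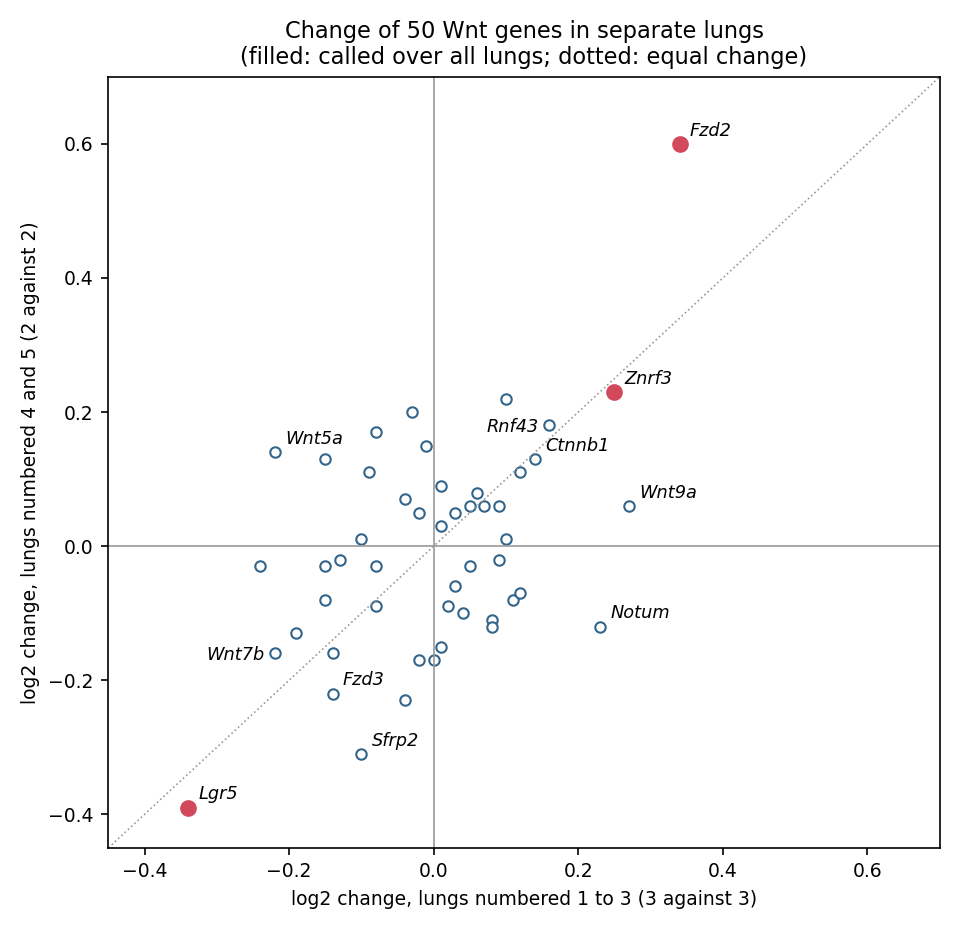
Log2 change of the 50 Wnt genes in lungs 1 to 3 (x axis, 3 against 3) and in lungs 4 and 5 (y axis, 2 against 2), which share no sample; the dotted line marks equal change. Fzd2 (0.34 and 0.60), Znrf3 (0.25 and 0.23) and Lgr5 (-0.34 and -0.39), filled, lie away from the origin on both axes, while most open points lie near it. The filled genes were called over all of these lungs, so their place off the origin follows in part from that choice.

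Markers of the lung's cell types were read beside these results. For the counts below, 3.12% of all genes were called without the block and 4.72% with it. An unadjusted p under 0.05 was found for 13.5% of all genes. Of 12 general epithelial genes 5 rose and 1 fell, and their mean level per lung was 9.40 to 9.50 in controls and 9.74 to 9.92 in knockouts; Krt18 rose by 1.34 and Cldn4 by 1.95, while Epcam had means of 10.28 and 10.32 and Nkx2-1 of 11.01 and 10.97. Of 10 club and secretory genes 5 fell and 1 rose (9.08 to 9.37 in controls, 8.63 to 8.99 in knockouts), and of 11 ciliated genes 4 fell (8.11 to 8.23, and 7.99 to 8.06). The block added Bpifa1 (higher) and Mcidas (lower). Bpifa1 had means of 4.57 in controls and 5.14 in knockouts, both under 6.30. Of 14 AT1 genes 1 rose and 3 fell, and of 14 AT2 genes 2 rose, with overlapping list means; the block added the AT1 gene Rtkn2 (higher). Limma called 0 of 14 mesenchymal and 0 of 12 endothelial genes, and 0 of either had an unadjusted p under 0.05; the endothelial gene Car4 was called higher once the block was used (0.32, adjusted p = 0.0172). All 11 smooth muscle and pericyte genes had a change below 0, with list means of 9.49 to 9.58 in controls and 9.32 to 9.47 in knockouts, and 0 were called without the block and 1 with it (Cnn1, lower). Of 8 mesothelial genes Krt19 and Msln rose by 0.67 and 0.46, and 5 had a change below 0, with a list median of -0.01 and list means of 8.18 to 8.44 in controls and 8.32 to 8.52 in knockouts. Krt19 is also made by other epithelia, and Upk3b stood at -0.26 and was called with the block (adjusted p = 0.0271). Limma called 0 of 12 leukocyte genes (7.66 to 7.74, and 7.51 to 7.66), with 5 at an unadjusted p under 0.05; with the block Laptm5 (-0.27, adjusted p = 0.0227) and Ccr2 (-0.33, adjusted p = 0.0282) were called lower. Limma called 0 of 3 erythroid genes, with 0 at an unadjusted p under 0.05, while the block called Slc4a1 (0.22, adjusted p = 0.0461). Of 10 neural and striated muscle genes S100b alone was called, with means of 5.50 and 5.69, both under 6.30, and not with the block (adjusted p = 0.0825). The part of these cells in the changes of Fzd2, Znrf3 and Lgr5 was not tested.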

How the data were processed

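Total RNA of each lung (100 ng) was primed from poly(T), amplified and hybridised to an Affymetrix array, per the labels' protocols. The authors' deposited values are on a log2 scale, 1 per probe set and lung; oligo, RMA and limma are named in the submitters' processing notes. Not given in the sources used here are their versions, the annotation build and any row filter. Values of the 24888 probe sets ran from 3.526 to 13.611, with sample medians from 7.428 to 7.461 and correlations between samples from 0.9838 to 0.9945. Per the platform's annotation, 18922 probe sets carry 1 symbol, 1343 carry several and 4623 carry none. Gene IDs linked 18790 of them to RefSeq's GRCm38.p6 table. The genes number 17919, and those with several probe sets 793, among them Axin2, Lrp6, Notum and Sfrp2.

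Knockout and control were compared with limma 3.58.1 in R 4.3.3 (lmFit and eBayes, two-sided). Benjamini-Hochberg adjusted p values were taken over all genes, with calls made under 0.05. The script was tested on simulated data. All adjusted p values are limma's. The number of arrays limits the precision; the median SE of a log2 change was 0.066. The labels call the lungs biological replicates. The fit behind the calls had no block. Over all genes, deviations of same-numbered lungs from their group means correlated at 0.154 to 0.485. Between different numbers the median was -0.0829 and the highest 0.33, above the values for numbers 1 (0.319), 2 (0.154) and 3 (0.183). Pairing by number is thus not certain, and no label states it. The number was used only for the fit with the block and for the differences within pairs.

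The Wnt genes, the other lists and the naming rule were chosen with earlier results of these data known. The rule gives all values for genes called with or without the block and for Wnt2, Wnt5a, Wnt7b, Axin2, Lef1, Wif1 and Ctnnb1; others are marked as named after their values were seen. Alternatives covered the block, probe set choice, level filter, floor, normalization, variance model, the sets of numbers and leaving out each lung. Figures were drawn with matplotlib 3.10.9.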

Additional observations from a re-analysis of the deposited data

Results flagged for a closer look

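In groups of 5 lungs, 1 lung was flagged where its gap to the nearest lung took up more than 0.71 of the group's range. This held for 7 of 100 groups (50 Wnt genes in controls and in knockouts), and chance flags about 1 in 20. Notum was flagged in both groups: control 1 lay at 7.06 with the next control at 7.26, and knockout 5 at 6.81 with the next knockout at 7.40. Among controls, Nkd1 was highest in control 1 (10.87, next 10.61), Tcf7l1 in control 2 (9.28, next 9.12), and Tcf7l2 was lowest in control 5 (8.61, next 8.82). Among knockouts, Wnt9a was highest in knockout 2 (7.67, next 7.55) and Fzd1 in knockout 5 (8.92, next 8.73). None of these genes was called by limma.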

How the results depend on the processing

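Fzd2, Znrf3 and Lgr5 kept their direction under every alternative run on them, and each was called with the replicate block and in each of the 10 fits that left out 1 lung, which gave 3 called Wnt genes throughout (393 to 699 of all genes, and 0 to 1 of the 100 other pathway genes, the 1 being Celsr1 without knockout 4). Their calls ended with only lungs 4 and 5 (0 Wnt genes and 2 of all genes called), and Znrf3's also with only lungs 1 to 3; these fits hold fewer samples. Lgr5 lay under the median level and was not tested among genes above it. The replicate block called 846 genes and the sets of numbers as a block 910, and neither changed which Wnt genes were called. Of the other pathway genes, 0 were called in the fit without a block; Celsr1 alone was called (1) with the replicate block, arrays centred on the median, quantile normalization applied again, trend and robust both set in eBayes, genes above the median level or only lungs 1 to 3, and with the sets as a block 2 were (Celsr1 and Pygo2). Ctnnb1 passed with trend and robust set (adjusted p = 0.023) or floored values (adjusted p = 0.0173), and not in the other alternatives (adjusted p up to 0.729). The floor left the Ctnnb1 values themselves unchanged. Wnt2, Wnt5a, Wnt7b, Axin2, Lef1 and Wif1 were not called under any alternative; of these, Axin2 changed sign with its second probe set (0.10), Lef1 (0.01) and Wif1 (-0.08) with only lungs 1 to 3, Lef1 (0.03) and Wif1 (-0.01) without knockout 5, Wif1 (-0.07) without control 5, and Wnt5a (0.14) with only lungs 4 and 5.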
